A study of Mus musculus with 2 samples.

Results

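Mir214 and the 3 Mir199 genes, Mir199a-1, Mir199a-2 and Mir199b, are 4 of the 1973 miRNA genes counted in newborn mouse skeletal muscle. They were chosen by gene identifier, not by their counts, and all 4 were listed in both count tables. The material was whole muscle of strain B6NCrl at postnatal day 0, with no treatment or engineered allele named. The 2 small RNA libraries came from 2 pups of 1 litter of undetermined sex, called replicate 1 (pup 1) and replicate 2 (pup 2). Both belong to 1 group, so no condition was contrasted, and every test below compares a pair of libraries beyond counting error.

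A miRNA is cut from a hairpin RNA, and either arm of the hairpin can yield a mature strand, named 5p or 3p. Its seed, bases 2 to 8, directs it to matching sites in messenger RNAs, which are then repressed. Mir199a-2 and Mir214 lie together in Dnm3os, a long non-coding RNA of mesenchymal tissue that is induced by the transcription factor Twist1 and is needed for normal skeletal growth in mice. Products of both are known from fibroblasts and fibrosis, and in mouse myoblasts miR-214 is known to repress Ezh2, a Polycomb methyltransferase that silences muscle genes.

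The mature strands are shown because their identity decides which locus a read can be assigned to. All sequences are those of RefSeq on GRCm38.p6, the assembly also called mm10, and all 4 genes were found there. The first 4 lines carry the seed in capitals. The last is the stretch of the Mir199b hairpin that lines up with miR-199a-5p, for which the table held no mature strand, and its capital marks the single base that differs.
mmu-miR-214-5p: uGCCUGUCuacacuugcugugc
mmu-miR-214-3p: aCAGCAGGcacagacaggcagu
mmu-miR-199a-5p: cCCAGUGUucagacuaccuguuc
mmu-miR-199a-3p: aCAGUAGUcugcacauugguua
Mir199b, 5' arm: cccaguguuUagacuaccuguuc
Mir199a-1 and Mir199a-2 carried miR-199a-5p and miR-199a-3p without a mismatch. The mature strand miR-199b-3p of Mir199b was letter for letter miR-199a-3p. The 5' arm of Mir199b differed from miR-199a-5p by 1 substitution, C10U, given as the miR-199a-5p base, its position counted from 1 at the 5' end, and the Mir199b base. This position lies outside the seed, so the seed CCAGUGU is common to all 3 loci, as is the seed CAGUAGU of the 3' arm. The seeds of Mir214 are GCCUGUC and CAGCAGG, so Mir214 shares a transcript with Mir199a-2 but no seed with it.

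The hairpins show how far the likeness reaches beyond the mature strands. Capitals mark bases inside an identical stretch of at least 20 bases that also occurs in another annotated mouse hairpin.
Mir214, chr1:162223368-162223477, plus strand: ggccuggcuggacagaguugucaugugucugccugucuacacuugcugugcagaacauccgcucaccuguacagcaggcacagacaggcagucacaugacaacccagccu
Mir199a-2, chr1:162217814-162217923, plus strand: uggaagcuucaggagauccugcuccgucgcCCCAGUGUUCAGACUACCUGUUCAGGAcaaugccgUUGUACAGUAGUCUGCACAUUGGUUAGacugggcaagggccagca
Mir199b, chr2:32318460-32318569, plus strand: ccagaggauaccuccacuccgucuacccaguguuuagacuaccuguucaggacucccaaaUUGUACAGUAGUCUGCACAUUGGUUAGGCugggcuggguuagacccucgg
Mir199a-1, chr9:21496495-21496564, minus strand: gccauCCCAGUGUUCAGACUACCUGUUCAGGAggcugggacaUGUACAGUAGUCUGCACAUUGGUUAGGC
No base of Mir214 was shared in this sense, and each of its 91 windows of 20 bases occurred in no other hairpin of the table. Mir199a-2 had 54 shared bases, in a run of 27 over the 5' arm and another run of 27 over the 3' arm. Mir199a-1 had 55 shared bases, in runs of 27 and 28, and Mir199b had 29, all over the 3' arm. Windows found in no other hairpin made up 82.4% in Mir199a-2, 89.0% in Mir199b and 66.7% in Mir199a-1. Of 327 miRNA genes with at least 10 counts that were matched to the table, 269 had windows that were all unique. The search covered the 1005 hairpins of the table and not the whole genome.

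All 4 genes lie on the strand opposite a dynamin gene, in its introns. Dynamins are GTPases that pinch vesicles off membranes. Mir214 and Mir199a-2 lie inside Dnm3 on chromosome 1, Mir199b inside Dnm1 on chromosome 2, and Mir199a-1 inside Dnm2 on chromosome 9. In no annotated transcript did a dynamin exon overlap them. On their own strand, Mir199a-2 and Mir214 are exonic in Dnm3os (chr1:162217623-162225550, plus strand), and the other two have no host on their own strand in GENCODE M21. Mir199a-2 begins 191 bases from the start of Dnm3os and Mir214 begins 5745 bases from it, with 5444 bases between them. Of the 6 annotated Dnm3os transcripts, 2 contain both hairpins whole in 1 exon. An exon overlaps at least part of Mir199a-2 in 5 transcripts and part of Mir214 in 3.

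**Figure D1:**
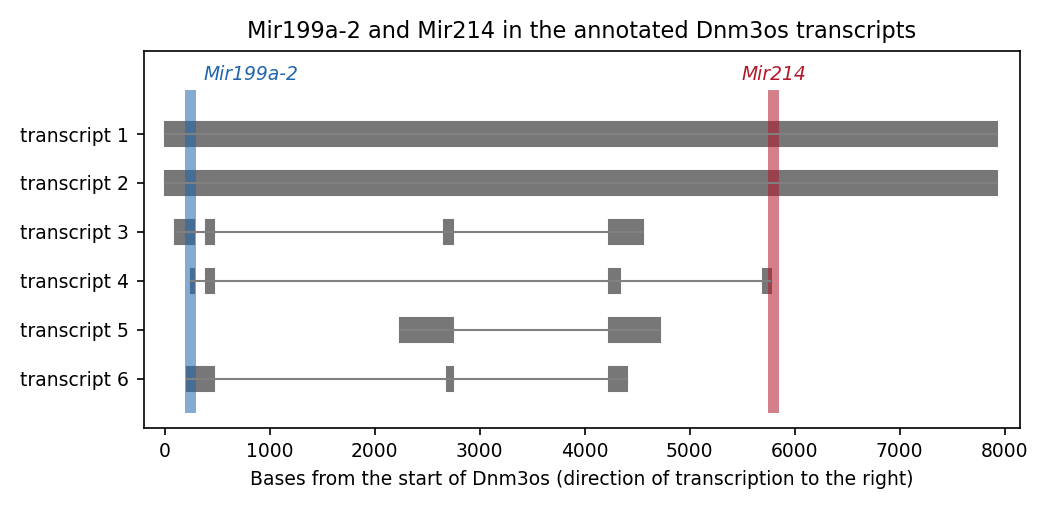
Positions of Mir199a-2 (blue band) and Mir214 (red band) in the 6 annotated Dnm3os transcripts. The x axis gives bases from the start of Dnm3os, gray boxes are exons and gray lines introns. Transcripts 1 and 2 hold both hairpins whole, at 191 and 5745 bases.

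The libraries held 3754895 own-strand counts in replicate 1 and 5133949 in replicate 2. Levels are given as CPM, own-strand counts scaled to these totals. Reads that map to several places were listed apart from the genes and made up 30.2% and 29.9% of all reads. Of the 8 striated muscle genes on a marker list, Mir206 had 79447 CPM in replicate 1 and 87198 CPM in replicate 2. On that list the means were 773 CPM for Mir133b, 599 CPM for Mir499, 564 CPM for Mir208b and 70.8 CPM for Mir486. They were low for Mir1a-1 (7.68 CPM), Mir133a-1 (5.78 CPM) and Mir133a-2 (1.12 CPM). All these values count reads assigned to 1 place, and the part of multimapping reads in the low ones was not tested. The 4 nerve markers summed to 377 CPM in replicate 1 and 359 CPM in replicate 2, nearly all of it Mir338 (1416 and 1839 counts). Mir219a-2 had 1 count in replicate 1 and 2 in replicate 2. Mir124a-1 and Mir9-2 had 0 in both libraries, which allows up to 0.799 CPM in replicate 1 and 0.584 CPM in replicate 2. This bound holds for reads assigned to 1 place and sets no limit on multimapping reads of these genes.

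Among reads assigned to 1 place, Mir214 had far more counts than any Mir199 gene. It had 23462 counts (6248 CPM, 95% interval 6169 to 6329) in replicate 1 and 27794 counts (5414 CPM, 5350 to 5478) in replicate 2. Its mean of 5831 ± 590 CPM (SD, n = 2) was the 35th highest among the 1973 listed genes, and per base of annotated gene it was the 43rd of 1894. Among reads assigned to 1 place, Mir214 thus ranked high in both pups, 32nd in replicate 1 and 39th in replicate 2. Multimapping reads do not enter these ranks.

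Mir199b came next, with 1108 counts (295 CPM, 278 to 313) in replicate 1 and 1075 counts (209 CPM, 197 to 222) in replicate 2. Mir199a-2 had 357 counts (95.1 CPM, 85.5 to 105) in replicate 1 and 273 counts (53.2 CPM, 47.0 to 59.9) in replicate 2. Mir199a-1 had 31 counts (8.26 CPM, 5.61 to 11.7) in replicate 1 and 32 counts (6.23 CPM, 4.26 to 8.80) in replicate 2. The order of the 4 genes was the same in both libraries, and no interval of a gene overlapped that of the next gene in either of them. These intervals are exact Poisson intervals and cover counting error only, since the tables carry no molecular identifiers.

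The means were 252 ± 60.6 CPM for Mir199b (rank 145), 74.1 ± 29.6 CPM for Mir199a-2 (rank 190) and 7.24 ± 1.43 CPM for Mir199a-1 (rank 273; SD, n = 2 each). Per 100 bases of annotated gene, the means were 5301 CPM for Mir214, 229 CPM for Mir199b, 67.4 CPM for Mir199a-2 and 10.4 CPM for Mir199a-1, whose annotated gene is 70 bases long against 110 for the others. The order therefore did not change with length. Together the 4 genes held 0.665% (0.657 to 0.673, Clopper-Pearson 95%) of gene counts in replicate 1 and 0.568% (0.562 to 0.575) in replicate 2. Mir214 supplied 94.0% and 95.3% of these counts.

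**Figure D2:**
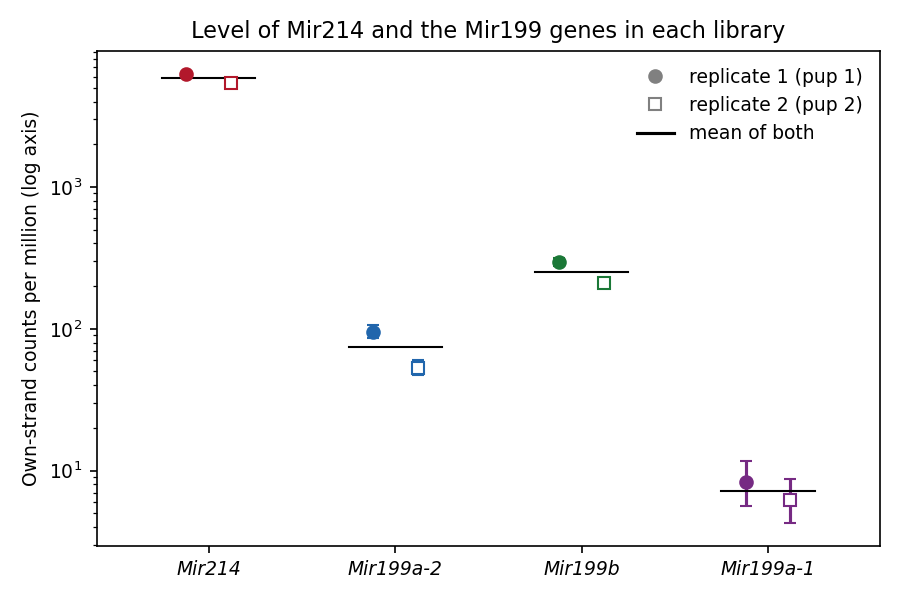
Own-strand CPM (log axis) of the 4 genes in replicate 1 (filled circles) and replicate 2 (open squares), with exact Poisson 95% intervals for counting error and the mean of both libraries as a black line. Mir214 lies at 6248 and 5414 CPM, and the highest value of a Mir199 gene is 295 CPM. Multimapping reads are not included.

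**Figure D3:**
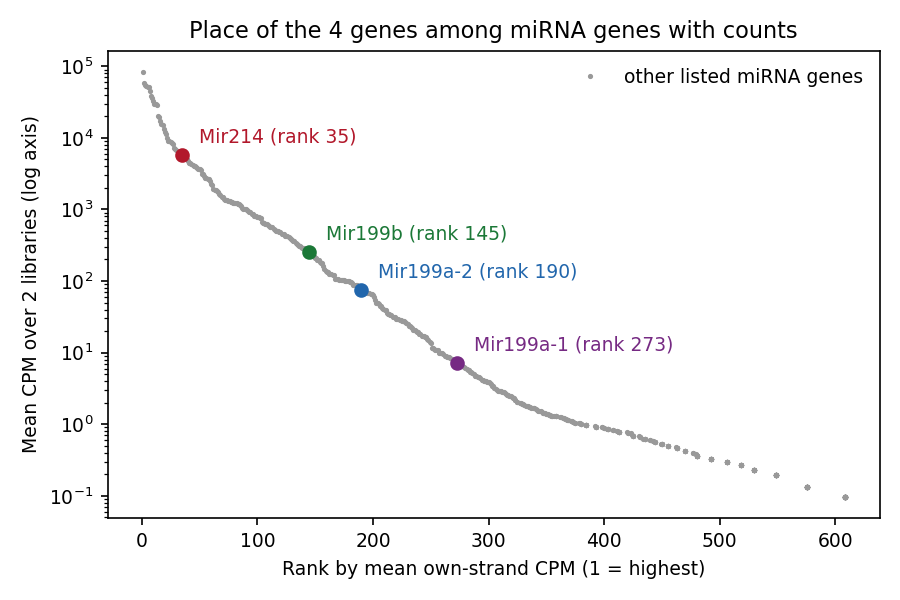
Mean CPM over both libraries (log axis) against rank for all listed miRNA genes with counts. The 4 genes are colored, with Mir214 at rank 35, Mir199b at 145, Mir199a-2 at 190 and Mir199a-1 at 273. Multimapping reads are not included.

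Mir214 and its Dnm3os neighbour Mir199a-2 lay far apart in reads assigned to 1 place although they share a host transcript. Mir214 had 65.7 times the counts of Mir199a-2 in replicate 1 (exact 95% interval 59.2 to 73.2) and 102 times in replicate 2 (90.4 to 115). The mean log2 ratio was 6.35 ± 0.45 (SD, n = 2), and as both annotated genes are 110 bases long it is the same per base. Both counts of a ratio come from 1 library, so depth and scaling cancel. The intervals of the pups did not overlap, and the ratio differed between the libraries (odds ratio 0.646 for replicate 1 over replicate 2, Fisher's exact test, two-sided, p = 6.32e-08, adjusted over 4 pairs 2.53e-07). The Fisher tests were added after the values were seen and compare libraries, not conditions.

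Both mature strands of Mir199a-2 are also made by another locus, and no strand of Mir214 is. Multimapping reads amounted to 2156563 in replicate 1 and 2971792 in replicate 2, against 1496 and 1380 counts for the 3 Mir199 genes together. The tables do not say which miRNAs the multimapping reads belong to. The gene counts of the Mir199 loci are therefore counts of the reads that were assigned to 1 place, and the part of multimapping reads in the gap to Mir214 was not tested.

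Among the Mir199 genes, Mir199b held 74.1% (71.8 to 76.3) of their summed counts in replicate 1 and 77.9% (75.6 to 80.1) in replicate 2. Mir199a-2 held 23.9% in replicate 1 and 19.8% in replicate 2, and Mir199a-1 held 2.07% and 2.32%. Mir199b had 3.10 times (2.75 to 3.51) as many counts as Mir199a-2 in replicate 1 and 3.94 times (3.44 to 4.51) in replicate 2, and both genes are equally long. The 5' arm of Mir199b can be told from that of Mir199a-1 and Mir199a-2 by C10U, and the part of this base in its share was not tested. Between Mir199a-2 and Mir199a-1, whose mature strands are identical on both arms, the ratio was 11.5 in replicate 1 (7.97 to 17.2) and 8.53 in replicate 2 (5.90 to 12.7). Per base of annotated gene it was 7.33 and 5.43. The last ratio did not differ between the libraries beyond counting error (Fisher's exact test, p = 0.287, adjusted 0.287), whereas that of Mir199b to Mir199a-2 did (p = 0.00985, adjusted 0.0131).

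Other miRNA genes were sorted in the same way, by whether a mature strand shares 20 identical bases with another hairpin. All strands in the table were shared in 35 listed genes, at least 1 but not all in 49, and none in 774. Of the 35, only 7 had at least 10 counts in both libraries, and the Mir199 genes were 3 of these 7. Mir199b was the highest of the 35, Mir199a-2 the 4th and Mir199a-1 the 7th. For Mir199b the table lists the 3p strand alone, and its 5' arm held no shared stretch of 20 bases. Its place among the 35 rests on that listing. None of the 35 reached 1000 CPM. Of the 774 with no shared strand, 80 did (10.3%), and Mir214 was the 32nd highest of them. Medians were 0 CPM for the 35, 11.5 CPM for the 49 and 0.292 CPM for the 774. Among genes with at least 10 counts in total the medians had another order, with 48.2 CPM for 8 genes with all strands shared, 29.3 CPM for 35 with some and 93.5 CPM for 282 with none.

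The step between Mir199a-2 and Mir214 was also set beside other neighbours. There were 100 pairs of adjacent miRNA genes on the same strand within 10 kb in which each gene had at least 10 counts. Their absolute log2 ratio had a median of 3.02 (quartiles 1.35 and 5.32), and 16 pairs had a larger one than the 6.35 of Mir214 and Mir199a-2. Among 65 pairs in which no listed strand was shared the median was 2.71, and 5 pairs had a larger ratio. A strand missing from the RefSeq table is not seen by this grouping. In 3 pairs, 1 gene had all strands shared and the other none. These were Mirlet7d over Mirlet7a-1 (6.84), Mir214 over Mir199a-2 (6.35) and Mirlet7b over Mirlet7c-2 (5.36), and in each the gene with no shared strand was the higher one. Multimapping reads do not enter these counts, and their part in this direction was not tested. The let-7 pairs were named after their values were seen. Several pairs come from the same cluster and share a gene, so they are not independent, and no test was made.

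**Figure D4:**
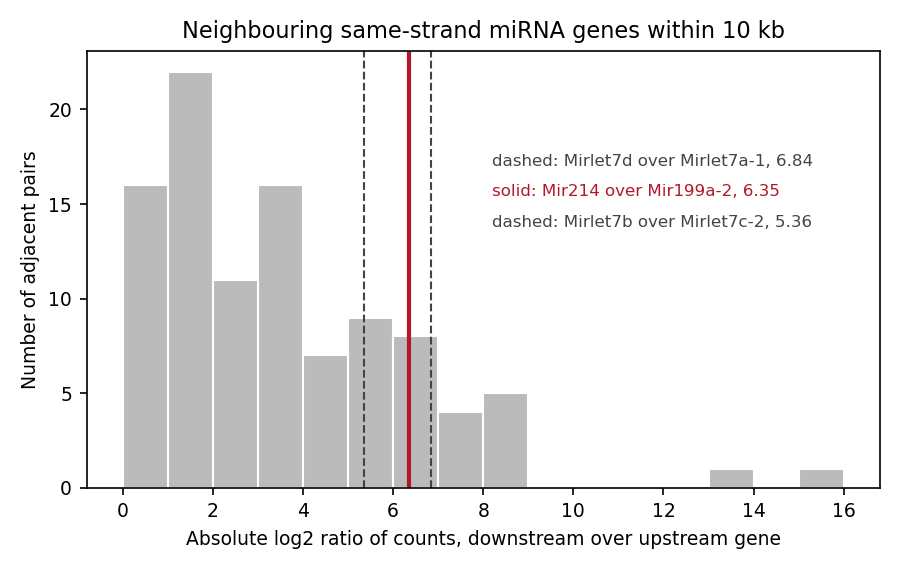
Number of adjacent same-strand miRNA gene pairs within 10 kb by the absolute log2 ratio of their counts, mean of both libraries. The solid red line is Mir214 over Mir199a-2 at 6.35. Dashed lines are the other pairs of a gene with all mature strands shared and a gene with none, at 6.84 and 5.36.

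All 4 genes had a higher value in replicate 1, by less than 2-fold. After TMM scaling, which corrects library totals for composition, the log2 ratio of replicate 1 over replicate 2 was 0.07 for Mir214, 0.70 for Mir199a-2, 0.36 for Mir199b and 0.27 for Mir199a-1. As fold changes these are 1.05, 1.63, 1.28 and 1.21. All 4 passed the minimum of 10 counts in total. None was called at an adjusted p under 0.05 and at least 2-fold, a rule that called 5.09% of the 373 genes tested, 4.56% as higher and 0.536% as lower in replicate 1. Past counting error alone were Mir214 (exact binomial test with Benjamini-Hochberg adjustment over all tested genes, adjusted p = 5.99e-08), Mir199a-2 (4.21e-09) and Mir199b (2.01e-08), but not Mir199a-1 (0.667). By that rule 49.1% of all tested genes differed, with 23.1% of all tested genes higher and 26% lower in replicate 1.

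The absolute log2 ratio of Mir214 was smaller than that of most genes, with 13.1% of the 373 below it, whereas 83.9% lay below that of Mir199a-2. The median absolute log2 ratio over all tested genes was 0.32, and the median signed one was -0.01. The 373 include genes with few counts, whose ratios carry more counting error than that of Mir214. Over the 239 genes with at least 100 counts in a library, the median absolute log2 ratio was 0.24. Under scaling by total counts, which moves every log2 ratio by 0.13, the values were 0.21 for Mir214, 0.84 for Mir199a-2, 0.49 for Mir199b and 0.41 for Mir199a-1.

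**Figure D5:**
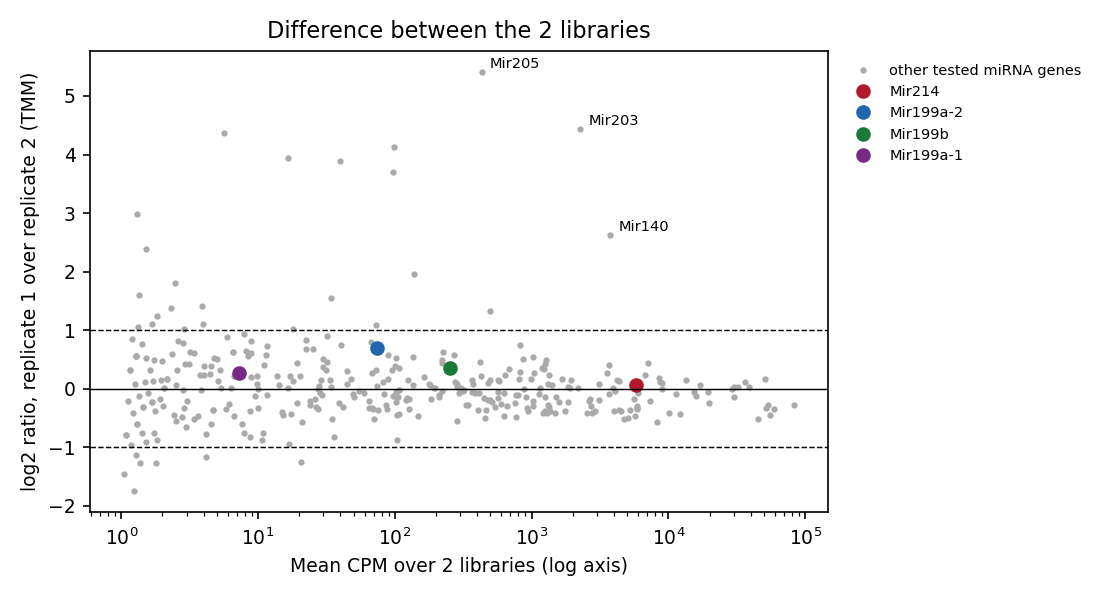
Log2 ratio of replicate 1 over replicate 2 after TMM scaling against mean CPM (log axis) for the 373 tested genes. Dashed lines mark 2-fold. The 4 colored genes lie between 0.07 and 0.70, inside the lines, while Mir205, Mir203 and Mir140 lie above them.

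Several marker lists of other cell types also had a higher sum in replicate 1, in CPM without TMM scaling. Summed over their lists, the 7 epithelial and skin genes had 5688 CPM in replicate 1 and 230 CPM in replicate 2, with 0 of them at 0 in both libraries. The cartilage genes Mir140 and Mir455 summed to 7917 CPM in replicate 1 and 1952 CPM in replicate 2. Of these sums, Mir140 had 6540 CPM in replicate 1 and 966 CPM in replicate 2, and Mir455 had 1377 CPM and 986 CPM. The blood genes, 4 of 5 listed, had 973 CPM in replicate 1 and 673 CPM in replicate 2, a ratio of 1.45. Among them Mir144 went the other way, with 80.7 CPM in replicate 1 and 93.3 CPM in replicate 2. The endothelial gene Mir126a had 40785 CPM in replicate 1 and 36558 CPM in replicate 2, and its log2 ratio after TMM scaling was 0.02. The fibroblast and smooth muscle list, which holds the 4 genes themselves, summed to 45695 CPM in replicate 1 and 42100.5 CPM in replicate 2. On that list the TMM log2 ratio was -0.14 for Mir143, -0.05 for Mir145a and 0.44 for Mir21a. The 8 striated muscle genes had 81335 CPM in replicate 1 and 89353 CPM in replicate 2, nearly all of it Mir206. The part of these cell types in the higher values of the 4 genes was not tested. In bulk tissue, more cells of a type and more RNA per cell cannot be told apart.

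Of 26 names on a list of miRNA genes linked to fibroblasts, smooth muscle and cartilage, 24 were among the listed genes. The 4 genes held 4.61% (4.55 to 4.66) of this list's counts in replicate 1 and 4.54% (4.49 to 4.59) in replicate 2. Mir214 alone held 4.33% and 4.32%. Mir214 was 7th in the list by mean CPM, 8th in replicate 1, where Mir140 lay above it, and 7th in replicate 2. Per base of annotated gene it was 8th. Ahead of it by CPM was Mir99a, of the Mir99 and Mir100 family, at 36446 ± 4535 CPM. Mir143, known from smooth muscle, followed with 30088 ± 137 CPM. Next came Mir23b with 15861 ± 83.5 CPM, Mir22 with 15371 ± 658 CPM and Mir10b, which lies in the HoxD cluster, with 8906 ± 540 CPM. The 6th, Mir21a, a miRNA of growth and fibrosis, was the closest above Mir214 in this list. It had 8474 CPM in replicate 1 and 5682 CPM in replicate 2.

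Of the list, 22 genes were tested between the libraries and 14 had a higher value in replicate 1, as did 184 of all 373 genes tested. Past counting error, 11 of the 22 were higher and 5 were lower in replicate 1, where over all genes tested 23.1% were higher and 26% lower. Without the 4 genes themselves, these were 8 higher and 5 lower of 18 tested. The median log2 ratio of the 22 was 0.13, against -0.01 over all genes tested, and 0.09 without the 4 genes. Only Mir140 was called, against 5.09% of all genes tested, with 24555 counts in replicate 1 and 4959 in replicate 2, and it was named for that reason after its values were seen.

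Mir341 and Mir154 ranked just above Mir214 by mean CPM, and Mir433 and Mir139 just below it. Likeness to Mir214 was the difference of the mean log2(CPM + 1), which was 0.007 for Mir154, 0.017 for Mir341, 0.044 for Mir139 and 0.045 for Mir433. With 2 libraries of 1 group there was no profile to correlate. Mir154 had 5416 CPM in replicate 1 and 6304 CPM in replicate 2. All 4 of these genes had a higher CPM in replicate 2, whereas Mir214 had a higher one in replicate 1. Their ranges overlapped that of Mir214. They were picked for their rank beside Mir214, so close means follow from that choice, and no test was made.

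Outside these loci, only Mir761 on chromosome 4 shares a seed with a mature strand of the 4 genes in the RefSeq table. Its strand is shown for that seed, which is in capitals.
mmu-miR-761: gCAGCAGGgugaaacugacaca
Mir761 had 0 counts in both libraries, which allows up to 0.799 CPM in replicate 1 and 0.584 CPM in replicate 2 among reads assigned to 1 place. The nearest other listed gene to Mir199b, Gm23363, lies 116 bases away on the same strand and had 3 counts in replicate 1 and 4 in replicate 2. On the strand opposite the 4 genes, a single read was counted, at Mir214 in replicate 1, and 0 elsewhere. Folding of the hairpins by RNAfold gave a minimum free energy of -67.5 kcal/mol for Mir214, -42.5 for Mir199a-2, -42.1 for Mir199b and -28.9 for the shorter Mir199a-1 hairpin.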

How the data were processed

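Small RNA libraries of 2 newborn pups were analysed from read counts per miRNA gene, deposited library by library on mm10 with GENCODE M4, per the deposited descriptions. Aligner and counter are not given in the sources used here. The deposited tables have 3 count columns without names, and the first equals the sum of the other 2 in every gene. The second was read as the gene's own strand, from layout and totals, and used here. The 4 leading lines, which name no gene, held 47.4% of reads in replicate 1 and 48.4% in replicate 2 and stayed out of library sizes.

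Names and places came from GENCODE M21 (1894 of 1973 identifiers matched) and sequences from RefSeq (869 matched by symbol and place). TMM factors (1.05 for replicate 1, 0.954 for replicate 2) came from edgeR 4.0.16 in R 4.3.3, with DESeq2 1.42.0 size factors as an alternative. Ratios add 0.5 to each count. Genes with at least 10 counts were compared by an exact two-sided binomial test given scaled library sizes (scipy 1.17.1). The procedure was tested on simulated data with counting error alone. Those data lack spread between pups, so they do not show how the test behaves with such spread. With 1 group, edgeR's quasi-likelihood test had no contrast. Hairpins were folded with ViennaRNA 2.7.2. With 1 library per pup, biological and technical spread cannot be told apart.

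The genes, lists and tests were chosen with earlier results of these data known. Named are the 4 genes, listed genes within 10 kb, the 2 genes ranked just above and the 2 just below Mir214, the 5 highest of the connective tissue list, and genes sharing a seed. The muscle, nerve, epithelial, cartilage, blood, endothelial, fibroblast and smooth muscle markers come from fixed marker lists. The let-7 pairs, Mir21a and Mir140 were named after their values were seen. The alternatives concern strand, denominator, pseudocount, scaling, filters, length and single libraries.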

Additional observations from a re-analysis of the deposited data

How the results depend on the processing

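The log2 ratios of the 4 genes kept their direction, and none of the 4 was called at 2-fold, under any alternative run. The order of the medians by strand sharing changed. The log2 ratio of Mir214 to Mir199a-2 ran from 6.04 to 6.67 with either library alone and stayed within 1 SD of 6.35 under the other settings. Scaled to all reads, the mean CPM values were 3040 for Mir214, 131.6 for Mir199b, 38.7 for Mir199a-2 and 3.78 for Mir199a-1, as the denominator grows. Counting both strands gave Mir214 5210 CPM, as the totals grow to 4170623 in replicate 1 and 5796817 in replicate 2. The 4 genes gained only 1 read by this, and all other opposite-strand counts fell on other listed genes. The ranks were then 40 for Mir214, 154 for Mir199b, 201 for Mir199a-2 and 285 for Mir199a-1. Per base, ranks were 43, 153, 202 and 265. In single libraries Mir199b ranked 144 in both (144 to 144) and Mir199a-1 ranked 269 in both (269 to 269). Without genes whose listed strands are all shared, which removes the Mir199 genes, the share in the connective tissue list was 4.34%. Requiring 10 counts gave medians of 48.2 CPM (all strands shared), 29.3 CPM (some) and 93.5 CPM (none), so that genes with no shared strand became the highest and those with some the lowest, as genes at or near 0 leave, and requiring identical mature strands gave 12.9 CPM for some. No paired analysis was possible because both libraries form 1 group. The 31 and 32 counts of Mir199a-1 leave wide intervals, and the part of depth, level or multimapping reads in these low counts was not tested.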
